A study of Mus musculus with 8 samples.

Results

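The 10 genes Slbp, Npat, Casp8ap2, Lsm11, Chaf1a, Chaf1b, Asf1a, Asf1b, Nasp and Hat1 encode factors that make histone mRNA and place new histones on DNA. They were picked by name from the 53242 genes of the deposited tables. Their RNA was compared between control B cells (Eif4a1+/+ CD23-cre) and B cells with a deletion of Eif4a1, which encodes an RNA helicase of translation initiation (Eif4a1fl/fl CD23-cre, 4A1 KO). Both groups were C57BL/6 mice of 8 to 12 weeks and both carried the Cre transgene, which is driven by CD23 and so acts in splenic B cells from an immature stage on. The loxP sites flank exons 2 to 4 of Eif4a1. Splenic B cells from 4 mice of each genotype spent 24 h on CD40LB cells with 40 ng/ml of IL4. CD40LB is a fibroblast feeder line that displays CD40 ligand, which had been irradiated with 120 Gy and was depleted through its H-2Kd before RNA extraction. Males gave replicates 1 and 3 and females replicates 2 and 4, with batch A made up of replicates 1 and 2 and batch B of the other two. Replicate 1 of both genotypes was left out of the tests across genes because the study had removed it for reduced viability, so means are over replicates 2 to 4 (n = 3) unless 8 libraries are named.

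A dividing cell needs a large supply of histones during S phase. Most histone mRNAs of S phase have no poly(A) tail and end instead in a stem-loop, which SLBP binds from processing to translation. NPAT and CASP8AP2 (FLASH) act at the histone gene clusters, where NPAT couples transcription to cyclin E and CDK2, and CASP8AP2 together with LSM11, a subunit of the U7 snRNP, brings in the machinery that cuts the pre-mRNA. New H3 and H4 are then held by NASP, acetylated by HAT1 on H4, passed to the chaperones ASF1A and ASF1B, and put on DNA behind the fork by CAF-1, of which CHAF1A and CHAF1B are subunits. Resting B cells lie outside the cell cycle and enter it after CD40 and IL4 signals.

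The target of SLBP was searched for in the annotated transcripts of the replication-dependent histone genes, and a stem-loop of 16 nucleotides was found for 34 of 64 of them, with 4 distinct sequences. A fixed pattern was searched for anywhere in a transcript. A stem-loop that departs from the pattern, or lies past the annotated end, would be missed. A match can also lie far from the annotated end, as in H1f3, where 4884 bases follow it. The commonest sequence was shared by 25 genes. The gene with the highest mean TPM among those with a stem-loop is shown for each histone class, because these are the sequences whose RNA is compared with Slbp further on. Capitals mark the stem-loop, and all are written 5′ to 3′ as DNA.
H1f2: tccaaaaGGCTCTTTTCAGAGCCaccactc
H2ac23: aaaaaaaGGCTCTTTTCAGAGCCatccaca
H2bc11: atccaaaGGCTCTTTTCAGAGCCacgcaca
H3c1: aaccaaaGGCTCTTTTCAGAGCCacacacg
H4c9: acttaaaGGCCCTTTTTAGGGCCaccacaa
These genes lie on chromosome 13 of GRCm39, H1f2 at chr13:23922791-23924350 (+), H2ac23 at chr13:21994635-21995114 (+), H2bc11 at chr13:22227384-22227846 (+), H3c1 at chr13:23945836-23946369 (-) and H4c9 at chr13:22224806-22225532 (-). Among the 5 genes shown, H4c9 alone carried a stem-loop other than the commonest sequence.

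Libraries of replicates 2 to 4 held between 38488341 and 43210858 counted reads, while replicate 1 held 39890141 in control and 31727557 in 4A1 KO. Eif4a1 itself was lower in every 4A1 KO library (700.4 to 843 TPM) than in every control library (933 to 1142 TPM), with a log2 fold change of the counts of -0.44 (SE 0.05, edgeR adjusted p = 1.15e-04). These counts cover the whole gene and do not separate transcripts with and without the floxed exons. The 6 B cell markers summed to 2373 to 2590 TPM in control and 1727 to 1934 TPM in 4A1 KO, and of these Cd79a, Cd79b and Cd22 were called decreased, while Pax5 (log2 fold change -0.23) fell by the adjusted p alone. Markers of other cells summed to at most 20.9 TPM for T cells (nearly all Lck, with Cd3g at 0 in every library), 6.22 for myeloid cells (S100a8 and S100a9 at 0) and 38.8 for fibroblasts (most of it Thy1, with Dcn, Lum and Postn at 0). In control and 4A1 KO the sums were 13.3 to 20.9 and 8.95 to 16.6 TPM for T cells, 2.71 to 5.32 and 4.02 to 6.22 for myeloid cells, and 15.7 to 38.8 and 9.17 to 26.2 for fibroblasts. Of the markers tested, Adgre1 of myeloid cells was called increased (log2 fold change 0.62) and Col3a1 of fibroblasts called decreased (-1.57), and Lck (-0.40) and Thy1 (-0.50) were lower by the edgeR adjusted p alone. Without the replicate block Cd79a, Adgre1 and Col3a1 were not called, and Pax5, Lck and Thy1 did not pass the adjusted p. Col3a1 was not called by DESeq2 either. Neither Adgre1 nor Col3a1 was called in all 8 libraries, by glmTreat or without replicate 4 (0.43 and -0.80 in that order). Cd79a was not called by glmTreat. The part of these cells in the results below was not tested. In bulk RNA, fewer cells that make a transcript and less of it per cell cannot be told apart.

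Most of these factors were lower in 4A1 KO B cells. Of the 10 genes, 6 were called decreased (Slbp, Casp8ap2, Chaf1a, Chaf1b, Asf1b and Hat1) and 0 were called increased, where a call needs both an edgeR adjusted p under 0.05 and a log2 fold change larger than 0.5 in size. Among all 14218 tested genes 13.7% were called decreased and 25.3% in either direction. Npat and Nasp fell and Asf1a rose by the adjusted p with a log2 fold change inside 0.5, and Lsm11 did not pass the test. By the adjusted p without regard to the fold, 8 of the 10 were decreased, beside 26.7% of all tested genes, and 1 was increased, beside 26.3%. Without the replicate block these were 7 and 1 of the 10, Npat being lost, beside 18.6% and 17.2% of all tested genes. The median log2 fold change of the 10 genes was -0.71, and that of all tested genes was 0.0066. DESeq2 with normal shrinkage also called 6 decreased, beside 10.4% of all genes it tested, and 0 increased.

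**Figure D1:**
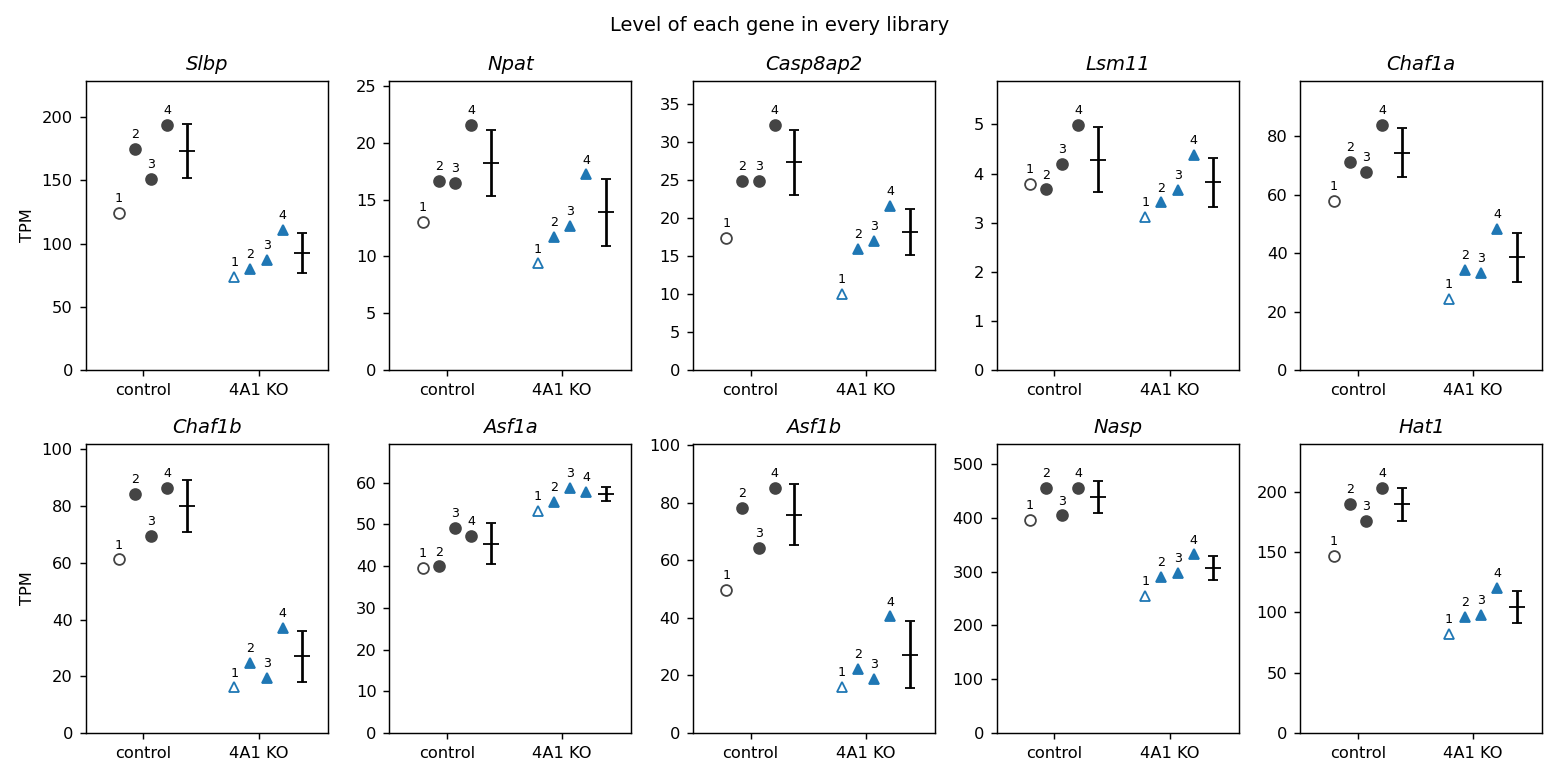
TPM (transcript abundance normalised for gene length and library size, vertical axes from 0) of the 10 genes in each library, with circles for control, triangles for 4A1 KO, the replicate number beside each point and open symbols for replicate 1; bars give mean and SD of replicates 2 to 4. The 4A1 KO libraries lie below all control libraries for 6 genes and above them for Asf1a. Npat and Lsm11 overlap with or without replicate 1, and Casp8ap2 only when it is included.

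Slbp (chr5:33792296-33809969, - strand) encodes the stem-loop binding protein. Its TPM were 124, 175, 151 and 194 across controls 1 to 4, against 73.5, 80.4, 86.9 and 111 across 4A1 KO 1 to 4. The highest 4A1 KO library thus lay under the lowest control, replicate 1 included. From 173 ± 21.3 to 92.7 ± 16.01 TPM (SD, n = 3), the mean fell by 46.5%, and the log2 fold change of the counts was -0.93 (SE 0.06, edgeR adjusted p = 1.53e-05). Within the same-numbered pairs the TPM fell by between 40.7% and 54.1%. A processed pseudogene, Gm8396, is 95.5% identical to Slbp over 828 nucleotides and held a mean of 2.62 counts per library against at least 2119 for Slbp.

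Npat (chr9:53448247-53486866, +) and Casp8ap2 (chr4:32615429-32653265, +) act at the histone gene clusters. Npat had 13.0, 16.6, 16.5 and 21.5 TPM across controls 1 to 4, against 9.39, 11.7, 12.7 and 17.2 across 4A1 KO 1 to 4. The groups overlapped, since 4A1 KO 4 was above controls 1 to 3, but every 4A1 KO library was below the control of its own number. Npat had a log2 fold change of -0.39 (SE 0.06, edgeR adjusted p = 7.63e-04) in the fit with batch and sex, which equal the replicate number, and of -0.38 (edgeR adjusted p = 0.0800) without this block. Acat1 overlaps the Npat gene on the opposite strand.

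Casp8ap2 had 17.5, 24.9, 24.9 and 32.2 TPM in control and 10.0, 15.9, 17.0 and 21.6 in 4A1 KO. Replicates 2 to 4 did not overlap, and control 1 lay among the 4A1 KO libraries. The mean fell from 27.3 ± 4.24 to 18.2 ± 3.00 TPM (SD, n = 3) and the log2 fold change was -0.57 (SE 0.05, edgeR adjusted p = 4.78e-05). In edgeR's glmTreat, which asks whether a change is larger than 0.5 on the log2 scale, Casp8ap2 had an adjusted p of 0.186, while the other 5 called genes still passed, beside 6.94% of all tested genes.

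Lsm11 (chr11:45819091-45835787, -), which with Lsm10 sets the U7 snRNP apart from the spliceosomal ones, was the least abundant of the 10 genes. It had 3.79, 3.68, 4.19 and 4.98 TPM in control and 3.12, 3.41, 3.66 and 4.39 in 4A1 KO. Each 4A1 KO library was below its own control and its TPM differed within the pairs by -7.21% to -17.5%, but the groups overlapped. The log2 fold change was -0.15 (SE 0.08, edgeR adjusted p = 0.178), from at least 360 counts per library. It lies on the chromosome of the targeted gene, 23.7 Mb from Eif4a1.

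Counts on the histone genes themselves fell further than those of Slbp. The counts summed over the 64 replication-dependent histone genes were 1034, 2110, 1625 and 2586 across controls 1 to 4, against 370, 411, 377 and 620 across 4A1 KO 1 to 4, with no overlap. These are few counts for so abundant an RNA class, and the sources used here do not state whether poly(A)+ RNA was selected before library preparation, so they cannot be read as the level of stem-loop mRNA. Of 22 histone genes that passed the filter on low counts, 20 were called decreased and 1, H2bc21, was called increased at a log2 fold change of 0.56 (edgeR adjusted p = 0.0459), beside 13.7% and 11.6% of all tested genes. Because a gene can pass this filter on its counts in control alone, the filter shapes that share. With no filter, 29 of 57 histone genes were called decreased, 1 was called increased and 27 did not pass the edgeR adjusted p. Of all genes tested without the filter, 2022 of 21402 were called decreased. H2bc21, named after its values were seen, had 36 to 60 counts in controls and 62 to 70 in 4A1 KO, and it was not called by DESeq2, by glmTreat, without the block or without any 1 of replicates 2 to 4. The search found no stem-loop in its annotated transcripts, which does not show that the gene lacks one.

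Set against this sum, Slbp was relatively more abundant in 4A1 KO. There were 4.42, 3.04, 3.42 and 2.72 Slbp counts per histone count across controls 1 to 4, against 5.73, 6.98, 7.79 and 6.34 across 4A1 KO 1 to 4. All 4A1 KO libraries were above all controls. The log2 ratio rose from 1.74 ± 0.30 to 2.74 ± 0.19 (SD, 4 libraries per genotype), a difference of 1.00 (p = 0.0286 in a two-sided exact permutation test, which is the least 4 against 4 can give, and 0.0286 adjusted over the 3 ratios tested). For this and the other two ratios p was 0.1 in replicates 2 to 4 alone and 0.125 over the 4 same-numbered pairs, in both cases the least that the exact permutation test can give. The size depended on the unit and on H1f2, a linker histone gene. With TPM the difference was 1.96. H1f2 had 122 to 183 counts in 4A1 KO and 116 to 201 in control (log2 fold change -0.05, edgeR adjusted p = 0.845) and made up 19.7% to 49.5% of the histone counts of 4A1 KO libraries, against 7.11% to 15.5% in controls. Its annotated transcript runs on for 840 bases after the stem-loop printed above, that of H2ac23 for 31. Without H1f2 the difference in log2 ratio was 1.54, and with only the 34 genes in which the stem-loop was found it was 0.93.

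**Figure D2:**
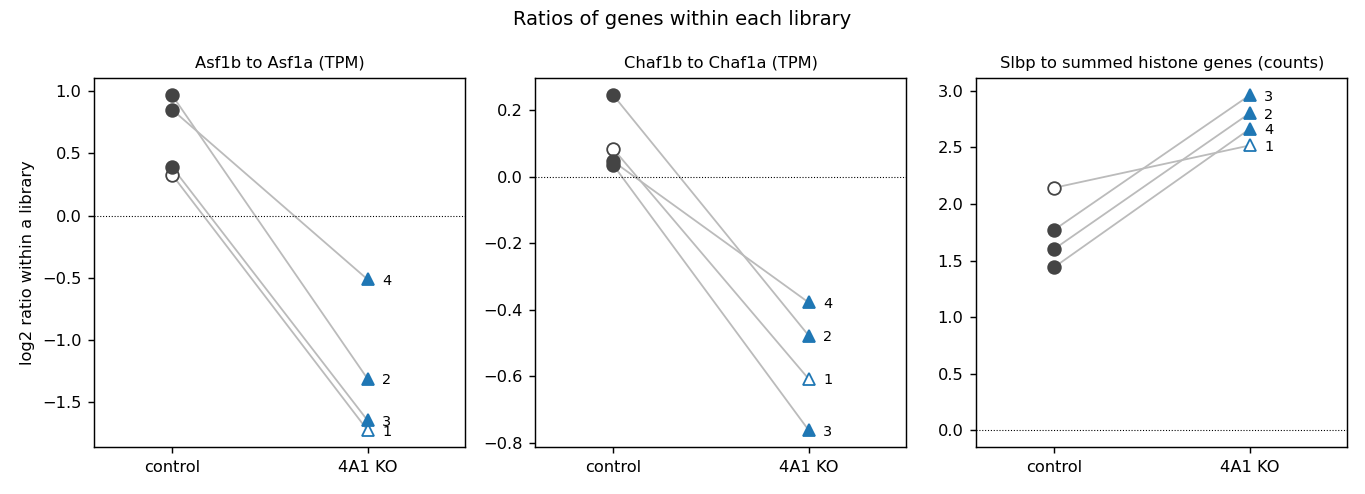
Log2 ratio within each library (vertical axes, not starting at 0) of Asf1b to Asf1a, of Chaf1b to Chaf1a and of Slbp to the summed histone genes, in control (circles) and 4A1 KO (triangles); lines join same-numbered libraries and open symbols are replicate 1. The first 2 ratios were lower and the third higher in all 4A1 KO libraries, and 4A1 KO 4 had the least reduced Asf1b to Asf1a ratio (-0.51).

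The CAF-1 subunit genes Chaf1a and Chaf1b fell unequally. Chaf1a (chr17:56347303-56379289, +), which encodes the subunit that binds PCNA, had 57.7, 71.2, 67.8 and 83.7 TPM across controls 1 to 4, against 24.4, 34.2, 33.1 and 48.2 across 4A1 KO 1 to 4. No libraries overlapped. Its mean fell by 48.1%, from 74.2 ± 8.36 to 38.5 ± 8.39 TPM (SD, n = 3). The log2 fold change was -1.19 in the counts (SE 0.08, edgeR adjusted p = 1.65e-05) and -0.94 in log2(TPM + 1) (limma adjusted p = 0.00386). Ubxn6 overlaps the Chaf1a gene on the other strand.

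Chaf1b (chr16:93680768-93703003, +), the WD-repeat subunit through which CAF-1 meets ASF1, changed most of the 10 genes. It had 61.2, 84.4, 69.5 and 86.5 TPM in controls and 16.04, 24.6, 19.5 and 37.1 in 4A1 KO. The mean fell by 66.2%, from 80.1 ± 9.24 to 27.1 ± 9.03 TPM (SD, n = 3), and the log2 fold change was -1.60 (SE 0.11, edgeR adjusted p = 1.78e-05). The log2 ratio of Chaf1b to Chaf1a went from 0.10 ± 0.10 in control to -0.56 ± 0.17 in 4A1 KO (SD, 4 libraries per genotype), a difference of -0.66 (exact permutation test, two-sided, p = 0.0286, adjusted over the 3 ratios 0.0286, and 0.1 in replicates 2 to 4 alone). In linear terms there were 1.03 to 1.19 Chaf1b transcripts per Chaf1a transcript in control and 0.59 to 0.769 in 4A1 KO. With counts in place of TPM the difference in log2 ratio was -0.40, with the same p from the exact permutation test. Rbbp4, which encodes the remaining CAF-1 subunit, had a log2 fold change of -0.24 (edgeR adjusted p = 0.00248).

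The paralogs of ASF1 went in opposite directions. Asf1b (chr8:84681589-84696978, +), the paralog linked to proliferating cells, had 49.8, 78.1, 64.4 and 85.2 TPM across controls 1 to 4, against 16.1, 22.3, 18.8 and 40.5 across 4A1 KO 1 to 4. Its mean fell by 64.1%, from 75.9 ± 10.6 to 27.2 ± 11.6 TPM (SD, n = 3), and its log2 fold change was -1.53 (SE 0.13, edgeR adjusted p = 3.59e-05). Leaving out a replicate gave -1.79 (replicate 4) to -1.40 (replicate 2), and DESeq2 with normal shrinkage gave -1.18, the smallest change among the alternatives.

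Asf1a (chr10:53472853-53486925, +), which hands H3.3 to the replication-independent HIRA pathway as well as H3 to CAF-1, had 39.6, 39.9, 49.1 and 47.2 TPM in controls and 53.2, 55.4, 58.8 and 57.7 in 4A1 KO. It was the only 1 of the 10 genes that was higher in 4A1 KO, and all 4A1 KO libraries were above all controls. The log2 fold change was 0.35 (SE 0.06, edgeR adjusted p = 0.00146), under the threshold of 0.5, so it was not called. The limma test on log2(TPM + 1) gave an adjusted p of 0.0189 with 3 pairs and of 0.0536 to 0.0763 when any 1 pair was left out. Mcm9, named after its values were seen, overlaps Asf1a on the other strand over 960 nucleotides of annotated transcript and had a log2 fold change of 0.34 (edgeR adjusted p = 0.00466). The counting was strand-specific, and how reads of the overlap were assigned was not tested.

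The more abundant ASF1 transcript was Asf1b in control and Asf1a in 4A1 KO. There were 1.26, 1.96, 1.31 and 1.80 Asf1b transcripts per Asf1a transcript across controls 1 to 4, against 0.303, 0.403, 0.32 and 0.701 across 4A1 KO 1 to 4. The log2 ratio was 0.63 ± 0.32 in control and -1.30 ± 0.55 in 4A1 KO (SD, 4 libraries per genotype), a difference of -1.93 (exact permutation test, two-sided, p = 0.0286, adjusted over the 3 ratios 0.0286, and 0.1 in replicates 2 to 4 alone). Asf1b made up 62.4 ± 5.01% of the summed ASF1 TPM in control (SD, n = 3) and 31.4 ± 8.80% of it in 4A1 KO (SD, n = 3). The sum itself was 121 ± 9.87 TPM in control (SD, n = 3), and 84.5 ± 11.9 TPM remained in 4A1 KO (SD, n = 3).

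Nasp (chr4:116458246-116485215, -), whose product holds soluble H3 and H4, was the most abundant of the 10 genes. It had 396, 455, 404 and 456 TPM across controls 1 to 4, against 254, 290.2, 297 and 332 across 4A1 KO 1 to 4. The libraries did not overlap, and the mean fell by 30.1%, from 438 ± 29.6 to 306 ± 22.2 TPM (SD, n = 3). Its log2 fold change of -0.49 (SE 0.05, edgeR adjusted p = 9.85e-05) lay just inside the threshold of 0.5, and Casp8ap2 at -0.57 was the called gene nearest to it. Nasp was called in all 8 libraries (-0.51), which made 7 of 10 genes called decreased beside 14.2% of those tested, and it was called without replicate 3 (-0.51) and without replicate 4 (-0.52). Gm6986, a processed pseudogene 89.7% identical to it, held a mean of 1.12 counts.

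Hat1 (chr2:71218392-71271966, +), the histone acetyltransferase of newly made H4, had 147, 189.8, 176 and 203 TPM in controls and 82.0, 96.5, 97.6 and 120.1 in 4A1 KO. All 4A1 KO libraries were below all controls. The mean fell by 44.8%, from 189.6 ± 13.8 to 105 ± 13.3 TPM (SD, n = 3), and the log2 fold change was -0.84 (SE 0.06, edgeR adjusted p = 1.50e-05), the smallest adjusted p among the 10 genes.

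**Figure D3:**
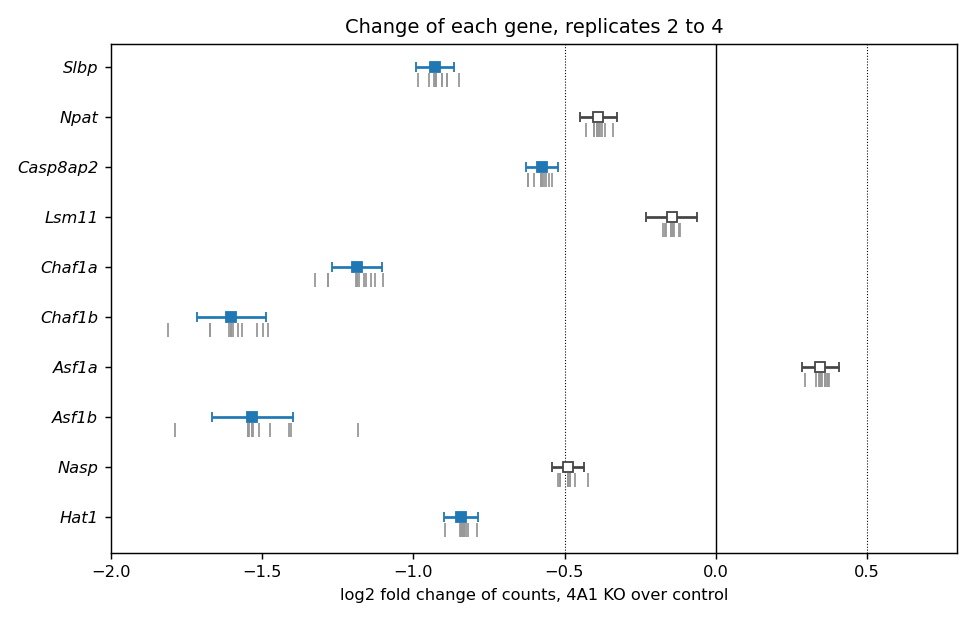
Log2 fold change of the counts, 4A1 KO over control, for each gene (squares, with bars of 1 SE; filled where called) and under 13 alternative settings (ticks); dotted lines mark 0.5 in either direction. Chaf1b (-1.60) and Asf1b (-1.53) changed most and Asf1a (0.35) is the only gene to the right of 0.

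In all 8 libraries the genotypes did not overlap for 7 genes, with 4A1 KO below control for Slbp, Chaf1a, Chaf1b, Asf1b, Nasp and Hat1 (6 of 10, beside 19.7% of the genes tested on TPM) and above for Asf1a (1 of 10, beside 16.0%). Exact permutation tests, two-sided, gave p = 0.0286 for each of these 7. The p from exact permutation tests was 0.171 for Npat, 0.0571 for Casp8ap2 and 0.257 for Lsm11. In TPM, limma gave 8 of the genes an adjusted p under 0.05 as lower in 4A1 KO, beside 24.9% of the 12976 genes tested, and 1 as higher. In either direction 47.2% of the genes tested passed.

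The libraries stood in much the same order for most of these genes. 4A1 KO 1 had the lowest TPM of the 4A1 KO libraries for all 10 genes, and 4A1 KO 4 the highest for 9, with 4A1 KO 3 highest for Asf1a. Among controls, control 4 was highest for 9 genes and control 1 lowest for 9. Pair 4 changed least for 5 genes, among them Chaf1b (-57.1%, against -73.8% in pair 1) and Asf1b (-52.5%, against -71.4% in pair 2).

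In control B cells the mean TPM over 4 libraries ran from Nasp (428) through Hat1 (179), Slbp (161), Chaf1b (75.4), Chaf1a (70.1), Asf1b (69.3), Asf1a (44.0), Casp8ap2 (24.9) and Npat (16.9) to Lsm11 (4.16). Neighbours whose ranges overlapped were Hat1 and Slbp, the run of Chaf1b, Chaf1a and Asf1b, and Casp8ap2 and Npat. In 4A1 KO the order at both ends was the same, but Asf1a (56.3) moved above Chaf1a (35.0), Asf1b (24.4) and Chaf1b (24.3), and its range did not overlap that of Chaf1a. From Chaf1a down to Npat, and between Hat1 and Slbp, neighbouring ranges overlapped in 4A1 KO.

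Whether the genotype effect differed between sexes or batches was asked with interaction terms over all 8 libraries. None of the 10 genes passed an adjusted p of 0.05 in edgeR (all 1), beside 0.00704% of tested genes for sex and 0.0141% for batch. Without adjustment, Chaf1a and Chaf1b reached the threshold of 0.05 for sex, as did 2.79% of tested genes, and Chaf1a reached it for batch, as did 3.79%. Their interaction terms on the log2 scale were -0.36 (SE 0.10) and -0.39 (SE 0.15) for sex, and 0.32 (SE 0.10) for Chaf1a and batch. Each sex within a batch was 1 library per genotype.

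Other genes of the same processes were followed as lists. Of 16 partners in histone pre-mRNA 3′ end formation, 14 were tested, 1 (Zfp473) was called decreased and 0 increased, beside 13.7% and 11.6% of all tested genes, and the median log2 fold change was -0.09. A count of 1 among 14 genes is near the share of all tested genes, and no difference is read from it. Zfp473, a zinc finger protein that works with the U7 snRNP, fell by 1.48 on the log2 scale (edgeR adjusted p = 0.00178), from 0.222 ± 0.0621 to only 0.0932 ± 0.0269 TPM (SD, n = 3). With normal shrinkage in DESeq2 its log2 fold change was -0.59 (adjusted p = 0.0264). By the adjusted p alone 6 of the 14 were decreased (26.7% of all tested genes), among them Lsm10, the partner of Lsm11 (log2 fold change -0.42), and the cleavage factor gene Cpsf2 (-0.32), and 1, Cstf2, was increased (0.20). Without the replicate block 3 were decreased and 0 increased by the edgeR adjusted p, with Lsm10 and Cstf2 among those lost, beside 18.6% and 17.2% of all tested genes. The U7 RNA gene Rnu7 did not pass the filter on low counts, and the listed name Symk matched no gene, so it was not analysed here. Cpsf3, which encodes the nuclease that cuts the pre-mRNA, had a log2 fold change of 0.09 (edgeR adjusted p = 0.125).

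Of 23 other histone chaperones and fork partners, all tested, 5 were called decreased and 1 increased, with a median log2 fold change of -0.17. Among all tested genes 13.7% were called decreased and 11.6% increased. By the adjusted p alone 13 of the 23 were decreased and 4 increased, beside 26.7% and 26.3%. Tonsl, which reads new H4 behind the fork, was called decreased at a log2 fold change of -1.07, as was its partner Mms22l at -0.70. Log2 fold changes were -0.99 for Hjurp, the chaperone of the centromeric H3 variant, -0.94 for Dnajc9, an H3 and H4 co-chaperone, and -0.95 for the sliding clamp gene Pcna, all called decreased. Tlk2, a kinase that phosphorylates ASF1, rose from 43.3 ± 5.19 to 83.9 ± 3.32 TPM (SD, n = 3; log2 fold change 0.98, SE 0.08, edgeR adjusted p = 2.57e-05). Its TPM were 38.8 to 48.9 in the 4 controls and 80.1 to 86.3 in the 4 4A1 KO libraries, and its paralog Tlk1 had a log2 fold change of 0.05 (edgeR adjusted p = 0.432). The general chaperones Npm1 (0.02) and Nap1l1 (-0.04) did not pass the test either, nor did Hira (-0.08), which places H3.3 outside S phase.

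Of 7 genes of the cyclin E and E2F input to NPAT and to S phase genes, 6 were called decreased and 0 increased, beside 13.7% and 11.6% of all tested genes, and the median log2 fold change was -0.97. E2f2 fell by 1.70 on the log2 scale, from 12.9 ± 2.28 to 4.18 ± 1.80 TPM (SD, n = 3), and E2f1 had a log2 fold change of -0.97. Cdc25a, the phosphatase that activates CDK2, fell by 1.00 on the same scale. Ccne1, which encodes cyclin E, fell by 1.74, or by 1.12 with normal shrinkage in DESeq2. Cdk2 fell by 0.40, past the adjusted p but inside the threshold for a call.

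**Figure D4:**
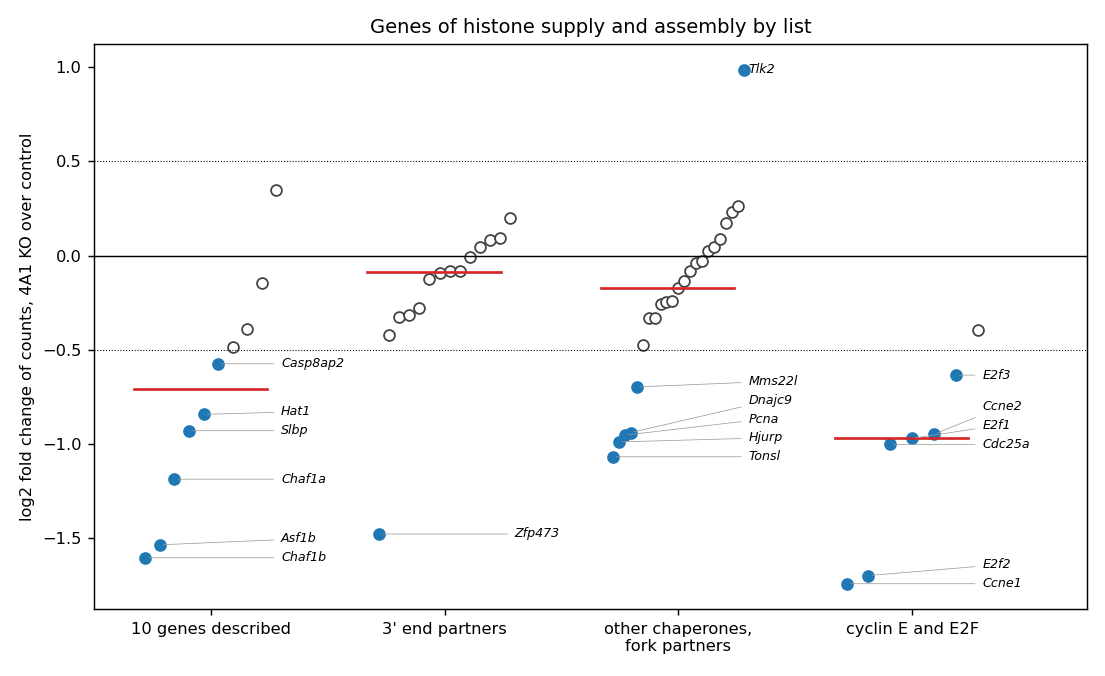
Log2 fold change of the counts, 4A1 KO over control (vertical axis), of each tested gene in 4 lists; filled points are called and named, dotted lines mark 0.5 in either direction and red lines are medians. The medians are -0.71 for the 10 genes, -0.09 for the 3′ end partners, -0.17 for other chaperones and fork partners and -0.97 for cyclin E and E2F genes.

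The promoters of the 10 genes were searched for E2F-type strings, because most of the genes fell together with E2f1 and E2f2. RefSeq windows from 250 bases before to 50 after the start (build GRCm38.p6) were found for all 10 and matched exactly to GRCm39. The string TTCCCGC and its variants, of which the first reads TTGGCGC, another reads TTCGCGC and the last reads TTGCCGC, were searched for on either strand and allowed to overlap. At least 1 was present in 4 of 10 windows (Npat, Casp8ap2, Chaf1a and Chaf1b), in 17.8% of 9463 windows of tested genes and in 9.69% of all 27025. The example nearest upstream of the RefSeq start is shown for each with the string, or its reverse complement, in capitals, on the strand of the gene, which is + for all 4. For Npat and Chaf1a the RefSeq start lies downstream of the gene start printed above, so the bases shown lie within the annotated gene.
Npat, chr9:53448317-53448346: gaaagaggcgggacaaaTTGCCGCgggttc
Casp8ap2, chr4:32615321-32615350: cgccttcaatgGCGGGAActggctgtgtgc
Chaf1a, chr17:56347358-56347387: ggttgccgcggTTCCCGCcaaatacgagcg
Chaf1b, chr16:93680551-93680580: tcctccgaggcGCGGGAAtgggattcccag
In the windows of the other 6 genes these letters were not found, which says nothing about the factors themselves. Slbp, Asf1b and Hat1, which were called decreased, were among these 6, and Npat, which held a string, was not called. Whether E2F factors act on these genes here was not tested. CCAAT, on either strand, was present in 8 of 10 windows (39.6% of tested genes), those of Asf1a, Asf1b, Slbp and Hat1 included, and TTTGAA in 3 of 10 (Lsm11, Asf1b and Nasp; 12.2% of tested genes).

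The genes whose log2 CPM (counts scaled to library size) most resembled that of Slbp across the 8 libraries were Cep128 (Pearson's r = 0.998), Ppm1g, Mis18a, Tacc3 and Gm27029, among 11822 genes compared. The libraries differed in genotype, depth and batch, which all genes compared have in common, and 1350 genes had an r above 0.9. Cep128 had 5.87 to 9.28 TPM in control and 2.57 to 4.56 in 4A1 KO. Within the 10 genes, Hat1 followed Slbp most closely (r = 0.996) and Asf1a ran against it (r = -0.87), while Lsm11 had an r of 0.676.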

How the data were processed

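RNA of CD40LB-activated B cells from 4 mice of each genotype was sequenced with a strand-marking kit and paired reads. The authors trimmed reads with Trim Galore 0.6.6, mapped them to GRCm39 with HISAT2 2.1.0 and deposited raw counts per gene, made with Seqmonk on merged isoforms. The authors also deposited TPM from StringTie 2.1.1. The treatment of reads with several map positions is not given in the sources used here. Groups, sex and batch came from the labels, and 0 per-sample columns were left unused.

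Differential expression was tested with edgeR 4.0.16 in R 4.3.3 (filterByExpr by genotype, TMM, quasi-likelihood test with batch and sex, Benjamini-Hochberg over 14218 genes) on replicates 2 to 4. Batch and sex equal the replicate number as a block there. After the mean of each genotype was subtracted, same-numbered libraries deviated together across genes (Pearson's r 0.333 to 0.488), besides sharing batch and sex in the labels. The other pairs had -0.203 on average, a value that this subtraction largely ties to that of the same-numbered pairs. The methods of the study name DESeq2, which is an alternative here (1.42.0). TPM were tested with limma 3.58.1 on log2(TPM + 1) for genes whose mean reached 1 TPM. CPM were TMM-scaled over 8 libraries. Ratios and single genes were tested over 8 libraries with exact two-sided permutation tests. Similar transcripts were found with blastn 2.17.0. The code was tested on simulated data.

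All 10 genes are named. From the lists of 3′ end partners, of other chaperones and fork partners and of cyclin E and E2F genes, the rule named up to 3 genes called in each direction with the smallest adjusted p. It also named Eif4a1 and the 5 genes most like Slbp, and gave histone genes as counts and sums. Mms22l, Pcna, Ccne1, Cdk2, Lsm10, Cpsf2, Cpsf3, Cstf2, Rbbp4, Tlk1, Npm1, Nap1l1, Hira, H1f2, H2bc21 and Mcm9 were named after their values were seen. Genes and lists were chosen with earlier results of these data known. Alternatives were other scalings, filters and pseudocounts, DESeq2, glmTreat, no block, all 8 libraries and leaving out each replicate. 2 other histone sums were added after the data had been seen.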

Additional observations from a re-analysis of the deposited data

Results flagged for a closer look

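Of 48 sets of 4 same-genotype libraries, 2 had a library set apart from the rest, and about 2.4 would be so by chance. For Asf1a in control the largest gap took up 0.843 of the whole range, since control 1 had 42.9 CPM and the remaining controls 45.6 to 46.1. For the summed histone counts in 4A1 KO it took up 0.836, with 620 counts in 4A1 KO 4 and 370 to 411 in 4A1 KO 1 to 3. Scaled to library size (CPM) these were 14.5 and 9.22 to 11.7, where the gap took up 0.539 of the range and no library stood apart. Without replicate 4 the log2 ratio of Slbp to the histone genes differed by 0.92 between genotypes.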

How the results depend on the processing

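The log2 fold changes of the 10 genes and of the partners and markers given a direction, and the 3 log2 ratios, kept their sign in the alternatives run, while that of H1f2, which did not pass the test, was 0.27 without replicate 4 and 0.09 in all 8 libraries. The number of the 10 genes called decreased was 5 to 7 and the number called increased 0 in every alternative; 5 were left by glmTreat, without Casp8ap2, and 7 were reached with Nasp. With a mean of at least 1 CPM required, 0 of the 3′ end partners and 7 histone genes were called decreased, since fewer genes are tested there. Leaving out a replicate gave 1 to 2 decreased 3′ end partners, 2 without replicate 4. The count of 1 increased histone gene was 0 with DESeq2 with and without shrinkage, with glmTreat, without the replicate block, and in each fit that left out a replicate (0 to 0). In TPM, 1 gene (Asf1a) was higher, and 0 to 0 when a replicate was left out. Without the replicate block Npat had an adjusted p of 0.0800 in counts (edgeR) and 0.13 in TPM (limma), and in TPM 0.0517 and 0.0532 without replicates 2 and 3. Without replicate 2, Lsm10, Cstf2 and Mcm9 did not pass the edgeR adjusted p (0.0735, 0.0605 and 0.0519), nor did Lsm10 without replicate 3 (0.0522). Leaving out the block moved no other of the 10 genes across an adjusted p of 0.05. Over the 4 same-numbered pairs, a replicate block left the mean differences of the log2 ratios of Asf1b to Asf1a, Chaf1b to Chaf1a and Slbp to histones at -1.93, -0.66 and 1.00, each with p = 0.125 by exact sign flips, the smallest that 4 pairs allow. They were -1.89, -0.65 and 1.20 in replicates 2 to 4 alone and ran from -2.12 to -1.82, from -0.74 to -0.61 and from 0.92 to 1.20 without a replicate, with p = 0.1 in each exact permutation test, the least that 3 against 3 can give. The scalings moved the median log2 fold change of all genes by at most 0.03. Lsm11 had a log2 fold change of -0.15 with an SE of 0.08, and for this gene a difference of that size was not detectable beyond the spread between libraries.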
